A study of Mus musculus with 26 samples.

Results

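The genes described here are the suppressors of cytokine signalling Socs1 to Socs7 and their relative Cish, 8 genes that encode inhibitors of cytokine receptor signalling. Their members on the array were taken as the probe sets (groups of short oligonucleotides that report 1 transcript) annotated to exactly 1 of these gene symbols. This gave 8 of the 18193 genes and 24 of the 45101 probe sets, with 6 for Socs2, 4 each for Socs4 and Socs7, 3 each for Socs3 and Socs6, 2 for Socs5 and 1 each for Socs1 and Cish. Messenger RNA was measured on 26 Affymetrix arrays, 1 per sample, from 8 blood progenitor populations of C57/Bl6 mice that the labels give as males aged 2 months. Bone marrow was the source of MPPFL- (5 arrays) and of MPPFL+, CMP, GMP and CLP (3 arrays each), and thymocytes were the source of DN1, DN2 and DN3 (3 arrays each). In the field's usual names these are multipotent progenitors (MPP), common myeloid (CMP), granulocyte-macrophage (GMP) and common lymphoid (CLP) progenitors, and successive early thymocyte stages (DN1 to DN3). A further label spells the MPP populations MMPFL and reads ALP where the titles read CLP. No label states whether replicates are separate animals or how many were pooled, so the p-values measure only the spread between these samples.

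Cytokines acting through receptors of the hematopoietin class activate JAK kinases, which phosphorylate STAT transcription factors. STAT factors in turn switch on genes of the SOCS family, whose proteins bind the receptor or the kinase through an SH2 domain and recruit an elongin and cullin ubiquitin ligase through a C-terminal SOCS box, which closes a negative feedback loop. Cish and Socs2 are well-known targets of STAT5, Socs3 is induced by STAT3 and limits signalling through gp130 and the G-CSF receptor, and Socs1 restrains interferon and common gamma chain cytokine signalling, with a known role in the thymus. Socs4 to Socs7 are less tied to cytokine induction and have been linked to receptor tyrosine kinases, among them the EGF receptor (Socs4, Socs5), Kit (Socs6) and insulin receptor signalling (Socs7).

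Promoter sequences from RefSeq (build GRCm38.p6) were at hand for 4 of the 8 genes, and 3 are shown because they hold letters of STAT or interferon response elements. Each runs from 250 bases before to 30 bases after the annotated start, 5′ to 3′ on the gene's strand, with motif matches in capitals. The Cish stretch lies at chr9:107296409-107296688 (plus strand), the Socs3 stretch at chr11:117969337-117969616 (minus strand) and the Socs1 stretch at chr16:10785507-10785786 (minus strand).
Cish: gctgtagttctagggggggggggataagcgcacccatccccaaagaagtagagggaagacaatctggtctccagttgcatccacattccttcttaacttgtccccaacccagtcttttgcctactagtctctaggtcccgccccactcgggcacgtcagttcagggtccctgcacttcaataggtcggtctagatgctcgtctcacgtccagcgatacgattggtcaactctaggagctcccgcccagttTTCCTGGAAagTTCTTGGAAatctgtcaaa
Socs3: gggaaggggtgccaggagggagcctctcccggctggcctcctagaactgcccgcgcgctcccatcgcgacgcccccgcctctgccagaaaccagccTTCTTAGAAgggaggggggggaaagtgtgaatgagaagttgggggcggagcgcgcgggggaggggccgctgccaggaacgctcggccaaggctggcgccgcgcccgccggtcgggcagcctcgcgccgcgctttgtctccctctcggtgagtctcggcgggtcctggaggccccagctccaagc
Socs1: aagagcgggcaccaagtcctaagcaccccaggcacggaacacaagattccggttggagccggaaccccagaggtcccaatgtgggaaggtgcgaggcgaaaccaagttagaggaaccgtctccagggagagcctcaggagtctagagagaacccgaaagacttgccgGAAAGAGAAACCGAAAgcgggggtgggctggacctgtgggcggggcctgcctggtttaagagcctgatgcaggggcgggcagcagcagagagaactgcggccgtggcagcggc
The STAT motif searched was TTCNNNGAA, which is its own reverse complement, and the interferon motif was GAAANNGAAA, searched on both strands. In windows of 300 bases, TTCNNNGAA was found in 8.3% and GAAANNGAAA in 3.44% of 32851 mouse promoters. Cish held 2 STAT matches, TTCCTGGAA at bases 1 to 9 and TTCTTGGAA at bases 12 to 20 counted from the start. Socs3 held TTCTTAGAA at bases -154 to -146. Socs1 held 2 overlapping interferon matches, GAAAGAGAAA at bases -83 to -74 and GAAACCGAAA at bases -77 to -68. The Socs4 promoter held neither motif in this window, which says nothing of its regulation. Such matches are descriptions of the letters, and factor binding was not measured on these arrays.

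All values are on the log2 scale as deposited. A lowest value of 2.17 recurred on every array, taken by 30.2% to 37.1% of the probe sets, so levels near it carry little information. Defining genes mostly followed the population names. Flt3 averaged 13.31 ± 0.29 in MPPFL+ and 10.99 ± 0.39 in MPPFL-, Il7r averaged 13.23 ± 0.06 in CLP and Il2ra averaged 13.14 ± 0.44 in DN2, with Il2ra at 7.37 ± 1.04 in DN1 (SD). Ptcra was at 12.81 in DN3. Flt3 was as high in CLP (13.58 ± 0.02) as in MPPFL+. Mpo, a myeloid gene, was highest in GMP (16.11 ± 0.03) but also averaged 14.23 ± 0.18 in MPPFL+, 14.15 ± 0.16 in CLP and 13.59 ± 0.05 in DN1. Kit averaged 13.54 ± 0.14 in MPPFL- and 9.95 ± 0.20 in DN3. Lineage markers were also read. In CMP the means of the 8 measured erythroid and megakaryocyte markers ran from 9.81 to 10.22 by array, against 5.26 to 6.02 in MPPFL+ and 6.92 to 8.13 in MPPFL-. Pf4 was at 13.53 in CMP and Hba-a1 at the lowest value. Of the 8, 6 were higher and 1 lower in CMP than in MPPFL+, where 22% of all genes passed. Of 9 mature myeloid and dendritic markers, 2 were higher and 3 lower in CLP than in MPPFL+ (median -0.75), where 5.97% of all genes passed. Xist, which is transcribed in female cells, read 13.49 and 14.74 on DN1 replicates 1 and 3 and 13.93 and 7.08 on DN2 replicates 2 and 3, and at most 4.45 on any other array. Eif2s3y, a gene of the Y chromosome, read 2.62 on DN1 replicate 3 and 2.17 on DN2 replicate 2, and 11.28 to 13.39 on the other arrays. Those 2 arrays therefore went against their male label with both genes, while DN1 replicate 1 and DN2 replicate 3 held both transcripts. Fits without the arrays with Xist keep only DN1 replicate 2 in DN1 and DN2 replicate 1 in DN2. No spread between arrays of DN1 or of DN2 enters their p-values and counts. The array maker's poly-A spike-in controls put the arrays into 6 sets. MPPFL-, MPPFL+ and CLP shared a set, as did DN1 and DN2, while GMP stood alone and CMP and DN3 were each split. Spike-in level and population therefore cannot be told apart in 5 comparisons, those of CMP and MPPFL+, of GMP with either CMP or CLP, of DN1 and CLP and of DN3 and DN2. Actin signal at the 3′ end minus that at the 5′ end was 3.12 to 4.08 in MPPFL- and 2.55 to 2.92 in MPPFL+. It was 1.47 to 1.52 in GMP and 2.51 to 2.84 in CLP. The ribosomal RNA control read 7.77 to 10.32 on the DN1 and DN2 arrays and 11.53 to 13.16 on the others. Where populations do not overlap in these measures, measure and population cannot be told apart. Since RNA was measured in bulk, fewer cells of a type and less RNA per cell cannot be told apart either.

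Differences were tested with limma over all 45037 probe sets other than controls, on all arrays, and a probe set is said to have passed, risen or fallen where its two-sided Benjamini-Hochberg adjusted p was under 0.05. Among the 24 probe sets, 17 differed somewhere among the 8 populations by the F test, against 50.1% of all probe sets. There were 9 that never reached 5 on any array, among them 4 of the 6 for Socs2, 2 of the 4 each for Socs4 and Socs7, and Socs1. The remaining 15 carry most of what follows.

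The myeloid step and the split between CLP and GMP held the most calls. In CMP against MPPFL+, 1 of the 24 probe sets rose and 8 fell, where 16% of all probe sets passed (4.9% higher and 11.1% lower). They fell for Cish, Socs2, Socs3, Socs4, Socs5 and Socs6 and rose for Socs7. Of Socs2, Socs4, Socs6 and Socs7 only 1 probe set each passed. The mean of the 8 erythroid and megakaryocyte markers was higher on every CMP array than on any MPPFL+ array, and its part in these differences was not tested. In GMP against CMP, 4 rose and 3 fell (16.2% of all probe sets passed, 9.86% higher and 6.29% lower). In CLP against GMP, 8 rose and 4 fell (20.8% of all passed, 11.3% higher and 9.42% lower). The other 5 comparisons gave the following counts. In MPPFL+ against MPPFL-, 1 rose and 1 fell (15% of all passed, 7.56% higher and 7.44% lower). In CLP against MPPFL+, 1 rose and 2 fell (4.11%, with 1.73% higher and 2.39% lower), and in DN2 against DN1, 1 rose (5.48%, with 2.74% higher and 2.74% lower). In DN1 against CLP, 5 rose and 3 fell (23.1%, with 10.2% higher and 13% lower), and in DN3 against DN2, 4 rose and 4 fell (23.9%, with 12.6% higher and 11.3% lower). Without the 4 arrays with Xist the count was 6 in DN1 against CLP (22.4% of all passed), 5 in DN3 against DN2 (17.7%) and 1 in DN2 against DN1 (8.12%). With the spike-in sets as a random block fewer of all probe sets passed too: the count was 4 in CMP against MPPFL+ (6.92% of all), 4 in GMP against CMP (7.35%), 4 in DN3 against DN2 (14.1%) and 8 in CLP against GMP (10.9%). In DN1 against CLP that fit gave 0 (7 at an unadjusted p under 0.05 by limma), where 11.3% of all passed. With the 3′ to 5′ difference (mean of actin and Gapdh) as a covariate the count was 9 in CLP against GMP (16.7% of all). It was 7 in CMP against MPPFL+ (14.9%), 6 in GMP against CMP (15.7%) and 10 in DN3 against DN2 (24.3%), and unchanged in the rest. Within the spike-in sets that hold both populations the count was 2 in MPPFL+ against MPPFL- (16.1% of all), 2 in CLP against MPPFL+ (4.19%) and 1 in DN2 against DN1 (0.659%). These were not all the same calls. The 2 in MPPFL+ against MPPFL- were Socs4 1421275_s_at and Socs3 1456212_x_at, neither of which passed on all arrays, and in CLP against MPPFL+ the fall of Socs5 1423350_at passed in both fits and that of Socs3 1456212_x_at only within the set. Median differences over the 24 probe sets lay between -0.03 and 0.03 in the 8 comparisons, beside 0 for all probe sets.

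**Figure D1:**
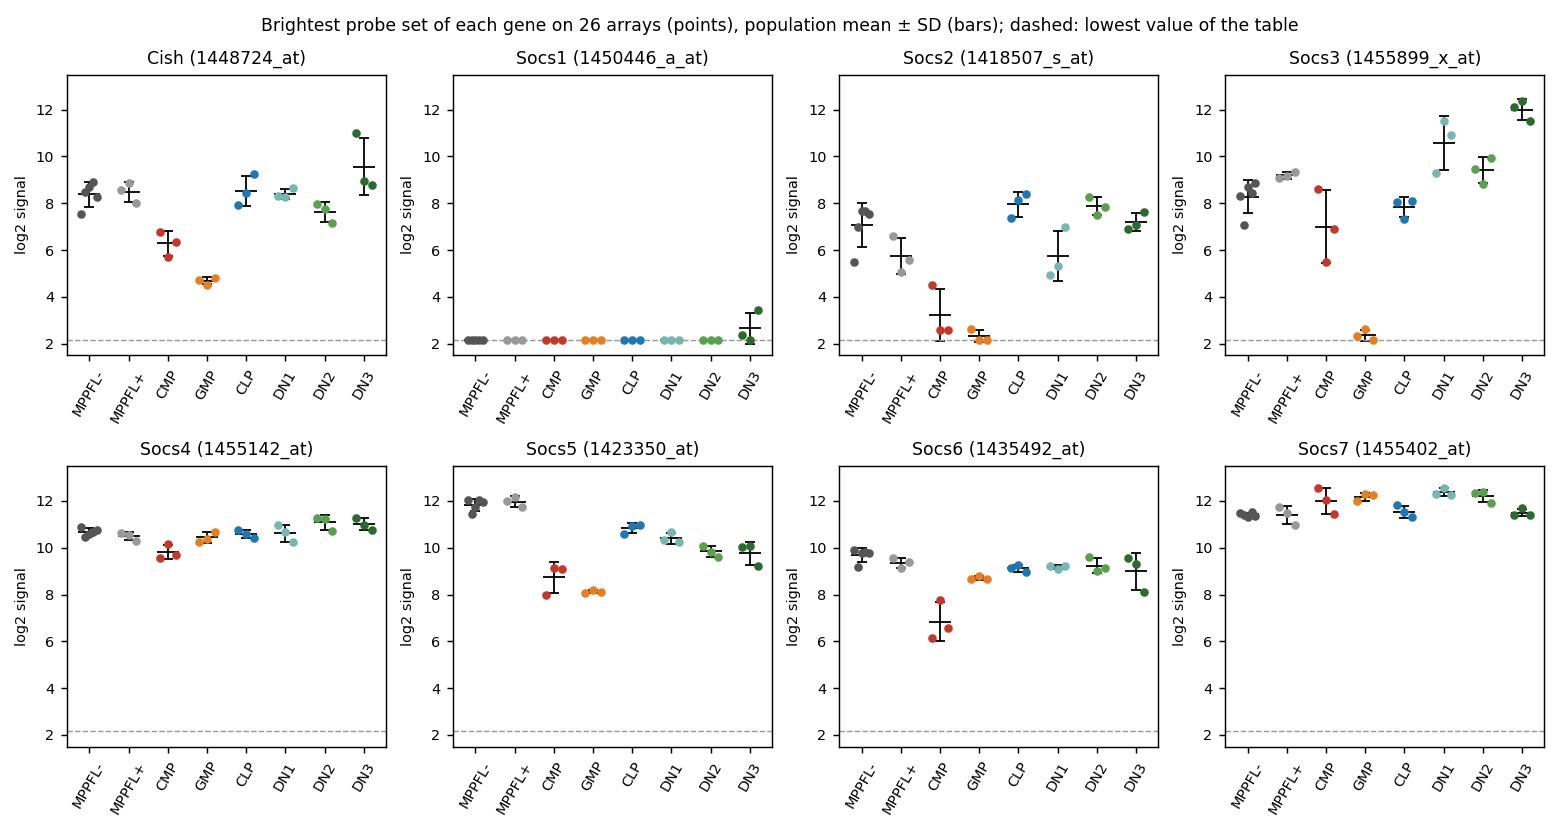
Level (log2 signal, y axis) of the brightest probe set of each of the 8 genes in the 8 populations (x axis), with 1 point per array, bars for the mean ± SD and a dashed line at the lowest value of 2.17. Cish, Socs2, Socs3 and Socs5 were lowest in GMP, Socs6 dipped in CMP (6.83 on average), and Socs1 stayed at or near the lowest value.

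**Figure D2:**
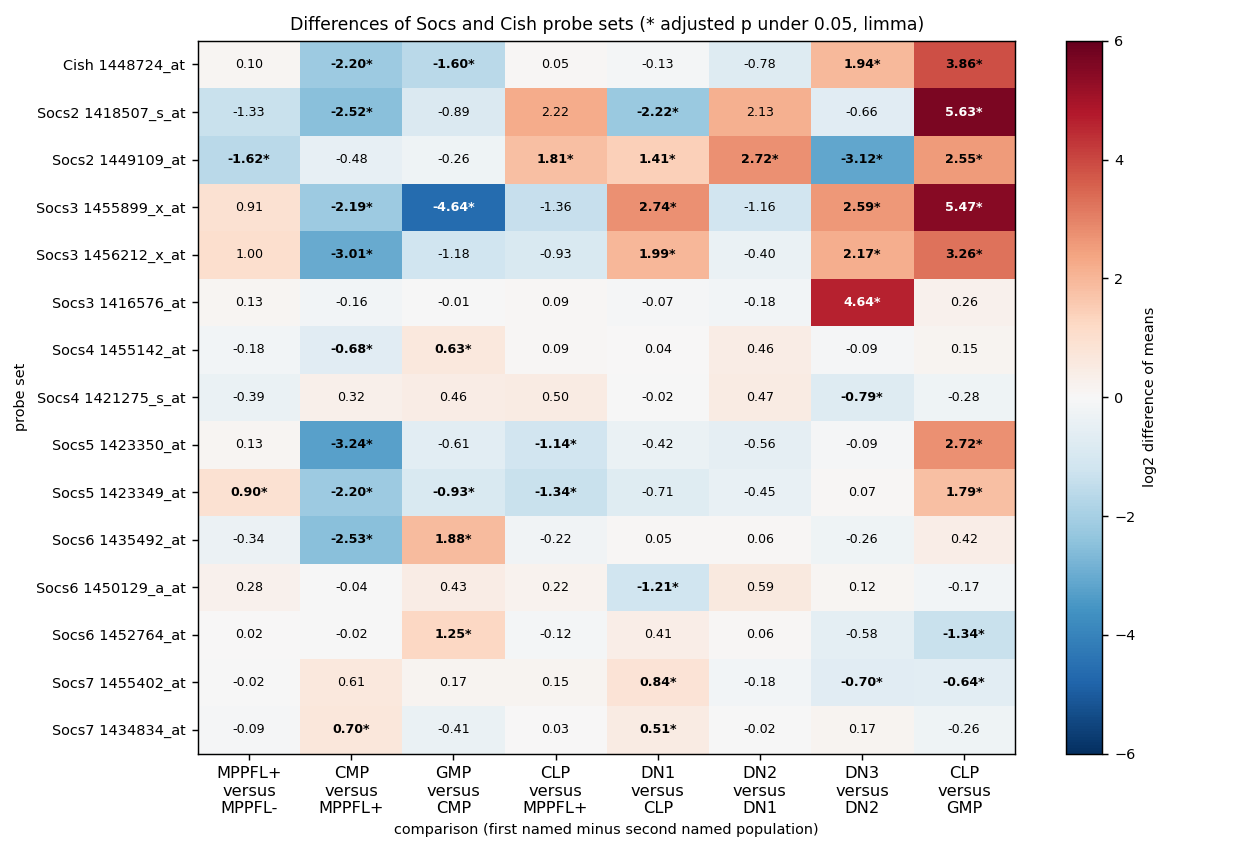
Log2 differences of means (colour and number) for the 15 probe sets that reached 5 on at least 1 array (y axis) in the 8 comparisons (x axis), first named minus second named population; an asterisk marks an adjusted p under 0.05 by limma. The columns CMP versus MPPFL+ and CLP versus GMP hold opposite colours for Cish, Socs2, Socs3 and Socs5.

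Cish, the cytokine-inducible SH2 protein that binds activated receptors, had 1 probe set (1448724_at) and was low in the myeloid populations. Along the myeloid steps it read 8.58, 8.85 and 8.00 on the MPPFL+ arrays, 6.75, 5.72 and 6.36 on the CMP arrays and 4.71, 4.51 and 4.81 on the GMP arrays. These 3 populations did not overlap, and MPPFL- ran from 7.53 to 8.92 with a median of 8.48. Cish fell in CMP against MPPFL+ (log2 difference -2.20 with SE 0.48, 4.59-fold lower, adjusted p = 0.00328 by limma). It fell again in GMP against CMP (log2 difference -1.60, SE 0.48, adjusted p = 0.0276), a call lost when any 1 of CMP replicates 1 and 3 or GMP replicates 1, 2 and 3 was left out (adjusted p 0.0546 to 0.111). In CLP it read 7.93, 8.44 and 9.23, all above GMP, with a rise of 3.86 over GMP (SE 0.48, 14.48-fold, adjusted p = 5.52e-06) that held in all 17 alternatives. With the spike-in sets as a random block the CMP against MPPFL+ difference had an adjusted p of 0.0741, and the GMP against CMP difference one of 0.124.

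In thymocytes, Cish read 8.30, 8.25 and 8.66 on the DN1 arrays, 7.96, 7.77 and 7.15 on the DN2 arrays and 10.98, 8.95 and 8.76 on the DN3 arrays. DN3 lay above DN2 on every array, with replicate 1 far above the other DN3 arrays. The rise in DN3 against DN2 was 1.94 (SE 0.48, adjusted p = 0.00524), or 1.23 (adjusted p = 0.039) without DN3 replicate 1. It did not pass with the spike-in sets as a random block (adjusted p = 0.0644), without the arrays with Xist (1.60, adjusted p = 0.192) or with only these 2 populations in the fit (adjusted p = 0.199). From highest to lowest mean, the order was DN3, CLP, MPPFL+, DN1, MPPFL-, DN2, CMP and GMP, and among neighbours only DN2 with CMP and CMP with GMP had arrays that did not overlap.

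Socs2, a STAT5 target whose protein limits growth hormone signalling, had 2 informative probe sets, and they described different peaks. The first, 1418507_s_at, was highest in CLP and the second, 1449109_at, in DN2. The first read 6.58, 5.04 and 5.59 in MPPFL+, 4.50, 2.58 and 2.58 in CMP, and 2.64, 2.17 and 2.17 in GMP, at or near the lowest value. Its level in CLP was 7.35, 8.12 and 8.39. It was at least 49.45-fold higher in CLP than in GMP (log2 difference 5.63, SE 0.62, adjusted p = 1.18e-06), a bound because GMP lay within 1 log2 unit of the lowest value. It fell in CMP against MPPFL+ (-2.52, SE 0.62, adjusted p = 0.00808), which did not pass without MPPFL+ replicate 1 (adjusted p = 0.0528) or with the spike-in sets as a random block (adjusted p = 0.0934), and was -3.16 without CMP replicate 1. That call was also lost with values under 4 set to 4 (adjusted p = 0.0691) and with only these 2 populations in the fit (0.221). As the mean over the Socs2 probe sets the adjusted p was 0.119. The second did not pass in this comparison (-0.48, adjusted p = 0.59), and its arrays overlapped. The second was at least 5.85-fold higher in CLP than in GMP (log2 difference 2.55, adjusted p = 0.000151), and both CLP against GMP calls held in every alternative. In CLP against MPPFL+ it rose by 1.81 (adjusted p = 0.0154), a call lost without MPPFL+ replicate 2 or 3 or CLP replicate 2 or 3 (adjusted p 0.0654 to 0.106). In MPPFL+ against MPPFL- it fell (-1.62, SE 0.38, adjusted p = 0.00575), although MPPFL+ replicate 1, at 4.27, was above the lowest MPPFL- array, at 4.14. Within the spike-in set that holds both populations this fall did not pass (adjusted p = 0.0735), nor did the rise in CLP against MPPFL+ (adjusted p = 0.185).

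The thymocyte values of Socs2 changed most at DN2. For 1449109_at they were 6.96, 6.72 and 6.89 in DN1, 9.53, 9.16 and 10.03 in DN2, and 6.29, 6.68 and 6.39 in DN3. The 3 stages did not overlap, with DN2 the highest of all 8 populations. It rose in DN2 against DN1 by 2.72 (SE 0.43, 6.57-fold, adjusted p = 0.000414) and fell in DN3 against DN2 (-3.12, SE 0.43, 8.68-fold lower, adjusted p = 1.52e-05). Both calls held in every alternative. With the arrays with Xist left out, DN1 and DN2 had only 1 array each, and the differences were 2.81 and -3.08. The probe set 1418507_s_at gave 4.94, 5.30 and 6.97 in DN1, 8.28, 7.50 and 7.82 in DN2, and 6.89, 7.09 and 7.64 in DN3, so DN2 and DN3 overlapped. Its difference in DN2 against DN1 was 2.13 (adjusted p = 0.0536) and that in DN3 against DN2 -0.66 (adjusted p = 0.62). The 2 probe sets went opposite ways in DN1 against CLP, where 1418507_s_at fell (-2.22, adjusted p = 0.0126) and 1449109_at rose by 1.41 (adjusted p = 0.02). Without DN1 replicate 3 the fall was -2.84. Neither DN1 call held with the random block (adjusted p = 0.16 and 0.229). The fall was lost without CLP replicate 3 or DN1 replicate 1 or 2, and the rise without CLP replicate 1 or DN1 replicate 1 (adjusted p 0.0539 to 0.0659 and 0.0546 to 0.134). Without the arrays with Xist the fall was -2.66 (adjusted p = 0.0389) and the rise 1.27 (adjusted p = 0.228). Across the 26 arrays their Pearson correlation was 0.71, as a description of arrays that share populations. The other 4 Socs2 probe sets stayed between 2.17 and 4.57, and none passed the F test.

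Socs3, the STAT3-induced inhibitor of gp130 and G-CSF receptor signalling, had the widest range of the family. Its 2 brightest probe sets (1455899_x_at and 1456212_x_at, whose suffix marks probes that may also match other transcripts) followed each other with a correlation of 0.94 over the 26 arrays. For 1455899_x_at, MPPFL+ read 9.06, 9.17 and 9.35, CMP read 8.62, 5.48 and 6.91 and GMP read 2.31, 2.61 and 2.17. CLP read 8.06, 7.33 and 8.10. GMP was near the lowest value on all 3 arrays, while the other 3 populations were not. It was at least 24.95-fold lower in GMP than in CMP (log2 difference -4.64, SE 0.63, adjusted p = 3.04e-05) and at least 44.23-fold higher in CLP than in GMP (5.47, adjusted p = 2.06e-06). The CMP arrays were spread, and the GMP against CMP difference was -3.83 without CMP replicate 1 and -5.40 without CMP replicate 2. For 1456212_x_at, MPPFL+ read 8.24, 8.07 and 8.30, CMP read 5.66, 4.21 and 5.72, and GMP read 3.99, 4.09 and 3.96, the same order without overlap. It fell in CMP against MPPFL+ (-3.01, SE 0.50, adjusted p = 0.000268) and rose in CLP against GMP by 3.26 (SE 0.50, adjusted p = 5.81e-05). Its difference in GMP against CMP was -1.18 (adjusted p = 0.133), with no overlap between the arrays. The CMP against MPPFL+ fall of 1455899_x_at (-2.19, adjusted p = 0.022) was lost without CMP replicate 2 or any 1 MPPFL+ array (adjusted p 0.0515 to 0.111). It was -1.42 without CMP replicate 2 and -3.00 without CMP replicate 1.

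**Figure D3:**
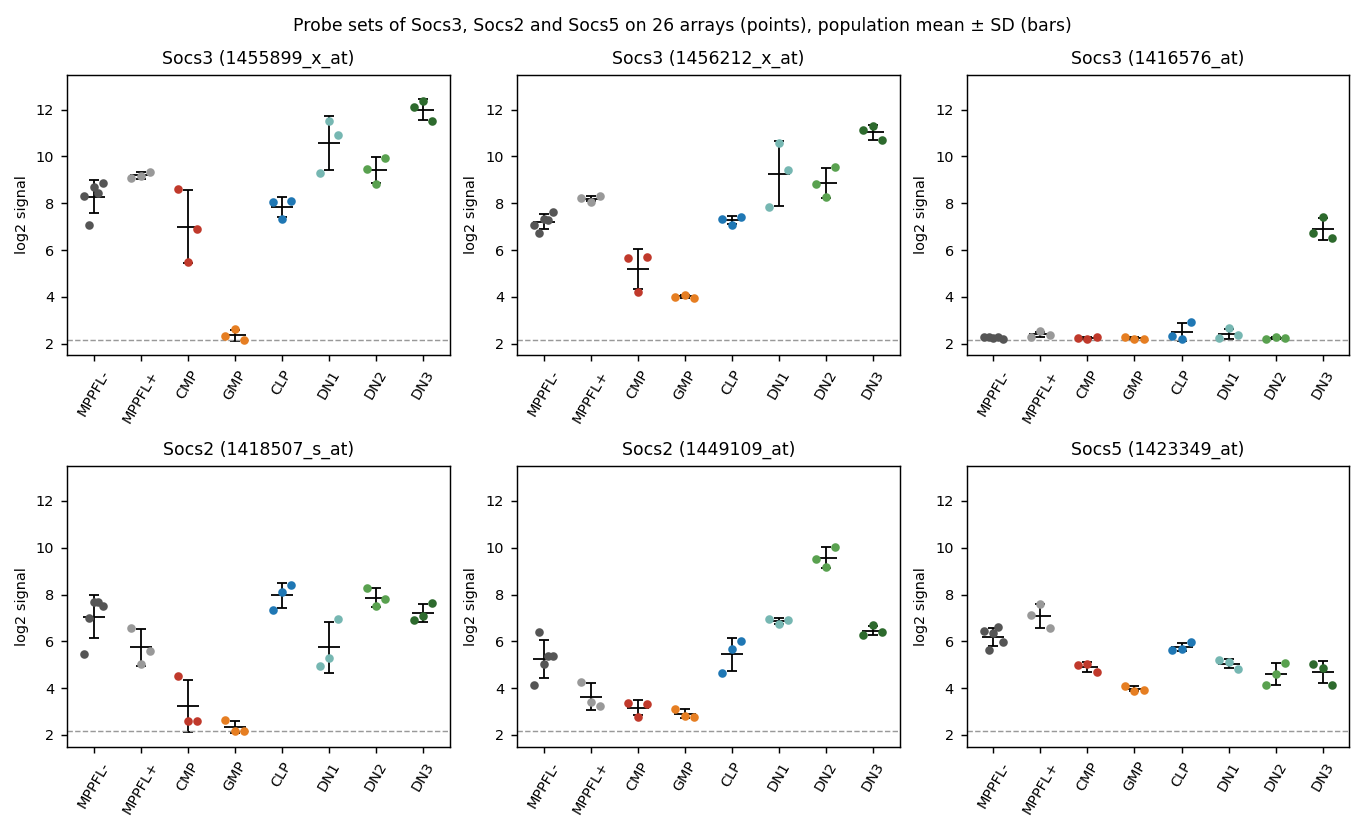
Level (log2 signal, y axis) of the 3 Socs3, 2 Socs2 and the dimmer Socs5 probe sets by population (x axis), with 1 point per array, bars for the mean ± SD and a dashed line at the lowest value. Socs3 1416576_at was above 6 in DN3 only, while 1455899_x_at also averaged 10.57 in DN1; Socs2 1449109_at was highest in DN2, at 9.57.

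Socs3 was highest in DN3 with all 3 probe sets. For 1455899_x_at, DN1 read 9.29, 11.52 and 10.90, DN2 read 9.45, 8.83 and 9.95 and DN3 read 12.11, 12.39 and 11.50. DN3 and DN2 did not overlap, whereas DN1 replicate 1 lay among the DN2 arrays and the other DN1 arrays above them. The third probe set, 1416576_at, read 6.72, 7.40 and 6.51 in DN3 and between 2.19 and 2.94 on all other arrays. In DN3 against DN2 it was at least 24.94-fold higher (4.64, SE 0.18, adjusted p = 2.76e-13), and the other 2 rose by 2.59 (SE 0.63, adjusted p = 0.00457) and 2.17 (SE 0.50, adjusted p = 0.00281). The calls of 1416576_at and 1456212_x_at held in every alternative, and that of 1455899_x_at in all but the fit without the arrays with Xist (2.55, adjusted p = 0.053). In DN1 against CLP, 1455899_x_at rose by 2.74 (adjusted p = 0.00304) and 1456212_x_at by 1.99 (adjusted p = 0.00555), while 1416576_at differed by -0.07 with both populations near the lowest value. Without DN1 replicate 1 these rises were 3.38 and 2.72, and without DN1 replicate 2 that of 1456212_x_at was 1.34 (adjusted p = 0.0434). With the spike-in sets as a random block those 2 rises had adjusted p of 0.0569 and 0.111. Without the arrays with Xist, which leaves DN1 replicate 2 alone in DN1, they were 3.69 and 3.31.

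Genes of the immediate early and heat shock response, which handling of cells can induce, also moved in thymocytes. The mean level of the 20 listed genes was 10.13, 12.35 and 12.11 on the DN1 arrays, 8.70, 8.93 and 11.42 on the DN2 arrays and 6.89, 7.13 and 8.82 on the DN3 arrays. DN1 replicate 1, the lowest of DN1 for this list, was also the lowest of DN1 for both bright Socs3 probe sets. In DN3, where Socs3 was highest, the list was low. In DN1 against CLP 13 of the 20 genes rose and 0 fell, and in DN3 against DN2 1 rose and 9 fell (26.1% and 29.8% of 18193 genes passed, each gene by its brightest probe set with p adjusted over all probe sets). Without the arrays with Xist the counts were 13 and 0 in DN1 against CLP and 3 and 3 in DN3 against DN2, in a fit where 25% and 21.8% of genes passed. Fos fell in DN3 against DN2 (-6.77, adjusted p = 0.00244, and -5.86 with adjusted p = 0.114 without the arrays with Xist), and Nr4a1 rose by 5.74 in DN1 against CLP (adjusted p = 8.94e-05). The list was also read in the comparisons of CMP. In CMP against MPPFL+ 2 rose and 1 fell (median 0.07), a share below the 22% of all genes that passed. In GMP against CMP 0 rose and 6 fell (median -1.09, 20.2% of genes passed). Hspa1a averaged 9.51 ± 0.94 in CMP, 2.56 ± 0.34 in MPPFL+ and 2.83 ± 0.26 in GMP. The part of these genes in the Socs3 differences, or in those of CMP, was not tested.

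Socs1, the inhibitor of interferon and common gamma chain signalling, had 1 probe set (1450446_a_at) that read 2.17 on every array outside DN3. In DN3 it read 2.35, 2.17 and 3.42. It did not pass the F test (adjusted p = 0.273) or any comparison, and no fold is given since all populations were at or near the lowest value. These arrays therefore give a level for Socs1 in none of the 8 populations.

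Socs5, which has been linked to the interleukin-4 and EGF receptors, was highest in the multipotent progenitors and lowest in GMP with both of its probe sets. For 1423350_at, CMP read 7.97, 9.13 and 9.08 and MPPFL+ read 12.01, 12.17 and 11.72. The gap between the populations exceeded the spread within either. It fell in CMP against MPPFL+ (-3.24, SE 0.27, 9.46-fold lower, adjusted p = 9.11e-08), a call that held in all 17 alternatives. The dimmer 1423349_at read 4.99, 5.04 and 4.67 in CMP and 7.12, 7.60 and 6.57 in MPPFL+, and also fell (-2.20, SE 0.29, adjusted p = 2.24e-05). In CLP against GMP both rose, by 2.72 (SE 0.27, adjusted p = 2.74e-07) and 1.79 (SE 0.29, adjusted p = 9.86e-05), and both calls held in every alternative. The correlation of the 2 probe sets over the 26 arrays was 0.87.

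Socs5 was also lower in CLP than in MPPFL+. The CLP arrays read 10.59, 10.92 and 10.99 for 1423350_at, all below MPPFL+, with a log2 difference of -1.14 (adjusted p = 0.0162). That call was lost without MPPFL+ replicate 1 or 2 or CLP replicate 1 (adjusted p 0.0606 to 0.0942). The log2 difference of 1423349_at was -1.34 (adjusted p = 0.00723), a call lost without MPPFL+ replicate 2 (adjusted p = 0.0559) and within the shared spike-in set (adjusted p = 0.0507). Through the thymocyte stages the level of 1423350_at averaged 10.41 ± 0.23 in DN1, 9.85 ± 0.23 in DN2 and 9.76 ± 0.49 in DN3 (SD, n = 3 each), and no step between neighbours from CLP to DN3 passed. The rise of 1423349_at in MPPFL+ against MPPFL- (0.90, adjusted p = 0.0215) was lost without MPPFL- replicate 2 or 5 or MPPFL+ replicate 1 or 2 (adjusted p 0.05 to 0.192) and within that set (adjusted p = 0.0612). Its fall in GMP against CMP (-0.93, adjusted p = 0.0306) was lost without any 1 of 5 arrays, CMP replicates 1 and 2 and the 3 GMP arrays (adjusted p 0.0537 to 0.087).

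Socs6, whose protein binds Kit, was set apart by a dip in CMP with its brightest probe set. On 1435492_at, MPPFL+ read 9.54, 9.13 and 9.40, CMP read 6.15, 7.75 and 6.59 and GMP read 8.67, 8.79 and 8.67. Every CMP array was below every array of the other populations. It fell in CMP against MPPFL+ (-2.53, SE 0.34, adjusted p = 3.52e-05) and rose in GMP against CMP by 1.88 (SE 0.34, adjusted p = 0.000662), and both calls were lost only with the 2 populations alone in the fit (adjusted p = 0.0893 and 0.113). The other Socs6 probe sets did not share the dip: 1450129_a_at averaged 8.33 ± 0.50 in CMP and 8.37 ± 0.37 in MPPFL+. That probe set fell in DN1 against CLP (-1.21, adjusted p = 0.00272), with 8.03, 7.44 and 6.67 in DN1 and 8.60, 8.60 and 8.58 in CLP. The call was lost with the random block (adjusted p = 0.0667). Without the arrays with Xist, which leaves DN1 replicate 2 alone in DN1, the difference was -1.15. The third, 1452764_at, was highest in GMP, with 5.84, 6.16 and 6.57, against 4.94, 4.94 and 4.95 in CMP. It rose in GMP against CMP by 1.25 (adjusted p = 0.000443) and was lower in CLP than in GMP (-1.34, adjusted p = 0.000115), calls that held in every alternative. Over the 26 arrays the 3 pairs of Socs6 probe sets had correlations of -0.13, 0.03 and 0.19, so no single Socs6 pattern can be given.

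Socs4 and Socs7 varied less. The brightest Socs4 probe set, 1455142_at, had population means within 1.28 log2 units of each other and was lowest in CMP, with 9.57, 10.14 and 9.69 against 10.64, 10.53 and 10.29 in MPPFL+. Its fall in CMP against MPPFL+ (-0.68, adjusted p = 0.0223) was lost in 9 of 17 alternatives, among them quantile normalization (adjusted p = 0.129) and leaving out MPPFL+ replicate 1 or 2 or CMP replicate 1 or 3 (adjusted p 0.0597 to 0.0954). Its rise in GMP against CMP (0.63, adjusted p = 0.0346) was lost without CMP replicate 1 or 3 or GMP replicate 2 or 3 (adjusted p 0.0654 to 0.153). The probe set 1421275_s_at was lower in DN3, with 6.51, 6.50 and 6.39, than in DN2, with 7.42, 7.36 and 7.0 (-0.79, adjusted p = 0.00408). That call was lost with the random block (adjusted p = 0.0615). Without the arrays with Xist, which leaves DN2 replicate 1 alone in DN2, the difference was -0.95. The dim 1421274_at was highest in GMP, at 4.17, 3.90 and 4.18, against 2.77, 3.02 and 2.40 in CMP, and was at least 2.55-fold higher in GMP (adjusted p = 0.000482). It was at least 2.1-fold lower in CLP than in GMP (adjusted p = 0.00244, or 0.0786 with the random block) and at least 1.76-fold lower in DN3 than in DN2 (adjusted p = 0.0161, lost without DN2 replicate 1 or DN3 replicate 2, adjusted p 0.0577 to 0.0709, or 0.0649 without the arrays with Xist). The dimmest, 1421273_at, was at least 1.63-fold lower in CLP than in GMP (adjusted p = 0.0258), a call lost without GMP replicate 2 or 3 or any 1 CLP array (adjusted p 0.0509 to 0.19).

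Socs7, linked to insulin receptor signalling, had population means within 0.98 for 1455402_at and 0.70 for 1434834_at. For 1455402_at, DN1 read 12.31, 12.57 and 12.27 and CLP read 11.81, 11.51 and 11.31, a rise of 0.84 (SE 0.22, adjusted p = 0.00859) that was lost with the random block (adjusted p = 0.115). Without the arrays with Xist, which leaves DN1 replicate 2 alone in DN1, the difference was 1.02. DN3 read 11.40, 11.69 and 11.40 against 12.33, 12.37 and 11.90 in DN2, a log2 difference of -0.70 (adjusted p = 0.0256) lost without DN2 replicate 1 or 2 or DN3 replicate 1 or 3 (adjusted p 0.0749 to 0.0925) or without the arrays with Xist (adjusted p = 0.109). In CLP it was lower than in GMP (-0.64, adjusted p = 0.0485), a call lost without GMP replicate 2 or 3 or CLP replicate 2 or 3 (adjusted p 0.116 to 0.192). The rise of 1434834_at in CMP against MPPFL+ was 0.70 (SE 0.17, adjusted p = 0.00649), with 9.78, 9.47 and 9.46 in CMP against 9.02, 9.10 and 8.48 in MPPFL+. It was the only member probe set to rise in that comparison, and the call was lost with the random block (adjusted p = 0.0671). It also rose in DN1 against CLP by 0.51 (adjusted p = 0.0335), a call lost without CLP replicate 3 or DN1 replicate 1 or 3 (adjusted p 0.0677 to 0.252) and without the arrays with Xist (0.33, adjusted p = 0.558). The remaining Socs7 probe sets read between 2.17 and 2.23. One of them, 1420766_at, passed in DN1 against CLP and in CLP against GMP with a difference of 0.03 in size, for which no fold is given, and both calls were lost without CLP replicate 2 (adjusted p = 0.104 and at most 0.119), the second also without any 1 GMP array.

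The deposited scale touches some of the differences in CMP. After quantile normalization between arrays the median difference of the 18452 brighter probe sets in CMP against MPPFL+ was 0.01, where it was -0.23 as deposited, and 46.6% of the calls were higher, where 30.6% were as deposited. In CLP against GMP the median changed by -0.11. The falls of Cish, Socs2, Socs5, Socs6 and of Socs3 1456212_x_at in CMP passed under both scales, and those of Socs4 1455142_at and Socs3 1455899_x_at passed only as deposited.

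Genes of the same pathway were taken from lists and described by their brightest probe set, with p adjusted over all 45037 probe sets. Over 18193 genes the median difference was 0 in every comparison. The Jak kinases and Stat factors (10 of 11 measured) changed most in DN3 against DN2, where 7 rose and 0 fell (median 0.86, 29.8% of all genes passed). Jak3, the kinase of common gamma chain receptors, rose by 2.50 (6.39 ± 0.26 in DN3 and 3.88 ± 0.67 in DN2, adjusted p = 0.000746). Stat3 rose by 2.42 (11.10 ± 0.25 in DN3 and 8.69 ± 0.50 in DN2, adjusted p = 1.17e-06) and Stat5a by 2.25 (10.35 ± 0.79 in DN3 and 8.11 ± 0.30 in DN2, adjusted p = 2e-05). Without the arrays with Xist, which leaves 1 DN2 array, these differences were 2.28 for Jak3, 2.14 for Stat3 and 2.38 for Stat5a. These stand beside the DN3 rises of Socs3 and Cish and the DN3 fall of Socs2 1449109_at. In DN1 against CLP the list had 1 higher and 3 lower (26.1% passed), with Jak3 (-3.52, adjusted p = 2.89e-05), Stat5a (-2.56, adjusted p = 6.27e-06) and Stat3 (-1.56, adjusted p = 0.000214) the lower ones. Without the arrays with Xist 0 were higher and 4 lower there. In CMP against MPPFL+, 2 of 10 fell and 0 rose (22% passed), Stat4 (-2.45) and Jak3 (-2.05).

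**Figure D4:**
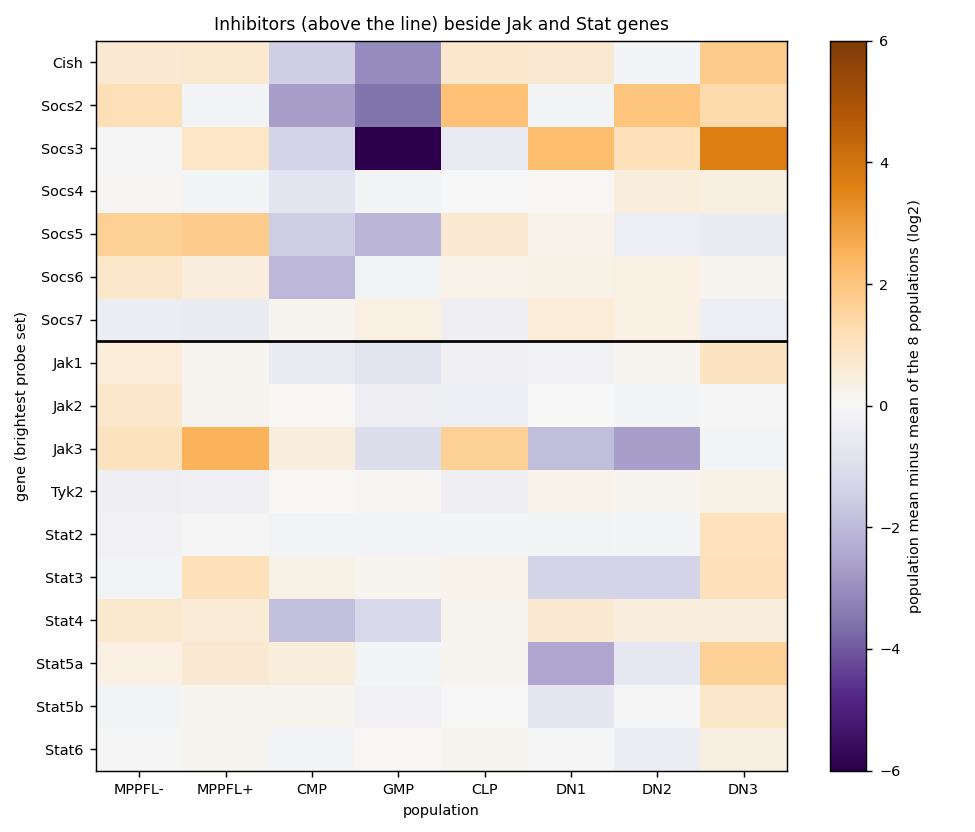
Population mean minus the mean of the 8 populations (log2, colour) for the brightest probe set of 7 inhibitors (above the line) and 10 Jak and Stat genes (below it), by population (x axis). Socs3 and Stat5a both have their highest value in DN3, while Cish, Socs2 and Socs3 are lowest in GMP, where no Stat gene is as far below its mean.

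Of 14 other inhibitors of cytokine signalling, 7 fell and 0 rose in CMP against MPPFL+ (median -0.55, 22% of genes passed). Among them were the adaptor Sh2b3 (-2.12, adjusted p = 0.000293), the STAT inhibitor Pias3 (-1.49, adjusted p = 0.0237) and the phosphatase Ptpn6 (-1.41, adjusted p = 0.00587). In CLP against GMP, 8 rose and 0 fell (median 0.64, 27% passed), with Dok2 higher by 2.63 (adjusted p = 5.75e-08). In DN3 against DN2, 5 rose and 1 fell (median -0.06, 29.8% passed), with the ubiquitin ligases Cblb (2.20, adjusted p = 6.94e-05) and Cbl (1.79, adjusted p = 0.000414) among the 5, and 4 rose and 1 fell without the arrays with Xist. Of the 6 ligase partners of the SOCS box, 2 rose and 2 fell in CMP against MPPFL+ (22% of genes passed). In DN3 against DN2 0 rose and 2 fell, also without the arrays with Xist, a share near the 29.8% of all genes that passed. Eloc, an elongin subunit, was lower in DN3 (-1.48, adjusted p = 2.94e-06), and Cul5, the cullin of SOCS box ligases, was higher in CMP than in MPPFL+ by 1.34 (adjusted p = 0.0202) and lower in GMP than in CMP (-2.20, adjusted p = 0.000418).

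Of 22 measured cytokine receptor genes, 2 rose and 11 fell in DN1 against CLP (median -0.84, 26.1% of genes passed) and 1 rose and 6 fell in DN2 against DN1 (7.37% passed). Without the arrays with Xist these counts were 2 and 8 in DN1 against CLP (25% passed) and 1 and 3 in DN2 against DN1 (8.11% passed). Il2ra, the interleukin-2 receptor alpha chain, rose by 5.77 in DN2 against DN1 (adjusted p = 4.26e-10), the step at which Socs2 1449109_at rose, and Csf2rb fell there (-3.87, adjusted p = 1.56e-09). Il7r averaged 13.23 ± 0.06 in CLP and 2.72 ± 0.14 in GMP, near the lowest value, a log2 difference of at least 10.51 (adjusted p = 1.3e-09), beside the rises of Cish, Socs2, Socs3 and Socs5. Of 13 further STAT5 target genes, 6 rose and 2 fell in CLP against GMP (27% passed), among them Cdkn1a (3.72, adjusted p = 2.13e-05) and Ccnd2 (1.54, adjusted p = 7.5e-05). In DN3 against DN2 4 rose and 1 fell (29.8% passed), with Myc higher by 3.43 (adjusted p = 2.42e-06), and 4 rose and 0 fell without the arrays with Xist. Of 13 interferon response genes, 0 rose and 6 fell in CMP against MPPFL+ (22% passed), 0 rose and 4 fell in GMP against CMP (20.2% passed), and 8 rose and 0 fell in CLP against GMP (27% passed). In DN1 against CLP 7 rose and 0 fell (26.1% passed), with Ifit3 higher by 4.29 (adjusted p = 2.28e-06). Usp18, itself an inhibitor of interferon receptor signalling, averaged 8.21 ± 0.30 in CLP and 2.78 ± 0.44 in GMP (log2 difference 5.43, adjusted p = 1.62e-07). Whether these lists and the inhibitors moved for a common reason was not tested.

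Across the 8 population means, the genes whose pattern lay closest to each inhibitor were found by Pearson correlation among 4496 genes. These are descriptions over 8 points from shared arrays, and high values are easily reached among so many genes. Closest to Cish was Chd3 (0.992), followed by Galnt12 and Mtss1 (both 0.979). For Socs3 they were Rnf44 (0.997), Plcg1 (0.984) and Usp18 (0.978). For Socs5 they were Tsen15 (0.985), Ttll1 (0.984) and Zbed5 (0.982), with Dnmt3a at 0.969, and for Socs6 they were Tspyl1 (0.987) and Mtfr1 (0.977). Socs2 (1418507_s_at) had looser matches, Ptger4 (0.936) and Zfp286 (0.934) being the closest. Socs4 and Socs7 were closest to Dmxl1 (0.977) and Ndufaf5 (0.952) over their small ranges, and Socs1 was left out because it was near the lowest value throughout.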

How the data were processed

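Total RNA from 26 samples of 8 populations was extracted with Trizol and hybridised as biotinylated cRNA, per the labels' protocols. The values used are log2 signals per probe set as deposited by the authors in a series-wide table. Not given in the sources used here is how they were normalized. No scanner file was used, so no detection calls enter. The number of arrays limits the precision.

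Probe sets were named from the platform annotation, in which 34945 of 45101 had 1 gene symbol and 932 had several. limma 3.58.1 in R 4.3.3 (lmFit, eBayes) was fitted to 45037 probe sets (64 controls left out) on all 26 arrays with population as the only term, giving 18 residual degrees of freedom. Tests were two-sided with Benjamini-Hochberg adjustment over all probe sets at 0.05, plus an F test over the 8 populations. Each of 18193 genes was represented by its brightest probe set in the pathway lists, with the same adjustment. A fold was given as "at least" where no array of the lower population exceeded the lowest value, 2.17, by over 1 log2 unit. Tables and figures used Python 3.11.15, pandas 2.3.3, numpy 2.4.6 and matplotlib 3.10.9, and the fit was tested on simulated data. There, of 100 probe sets changed by 1 log2 unit in CMP against MPPFL+, 36% passed. Of 100 changed by 2 log2 units, 75% passed, and 5 unchanged probe sets passed. A difference that did not pass is therefore not shown to be absent.

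All probe sets of the 8 genes are described, some of those near the lowest value only as a group. From each pathway list up to 3 passing genes per comparison with the largest change were named, and for each inhibitor up to 5 genes closest by correlation. Flt3, Il7r, Mpo, Il2ra, Kit, Xist and Eif2s3y checked the labels, and other genes named beside them (Ptcra, Pf4, Hba-a1) were chosen after their values were seen. The members and lists were chosen with earlier results of these data known. Alternatives were quantile normalization, a filter keeping probe sets at 5 or more on at least 3 arrays (21188, with 15 of the 24), values under 4 set to 4, only the populations compared, eBayes with trend, a replicate block, spike-in sets as a random block (correlation 0.32), a 3′ to 5′ covariate, the mean over the probe sets of a gene, leaving out the arrays with Xist over 5 (the lone DN1 and DN2 arrays left are assumed to vary like the other populations), and leaving out each array in turn. The main fit did not use replicate numbers to pair samples, and whether a shared number marks a shared preparation is not known.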

Additional observations from a re-analysis of the deposited data

Results flagged for a closer look

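Among the 5 MPPFL- arrays, 3 of 20 groups of values tested had 1 array whose gap to its nearest neighbour exceeded 0.71 of the whole range (Dixon's critical value for 5 samples). Chance gives about 1 in 20. Socs6 1435492_at was lowest on MPPFL- replicate 2, at 9.18, where the others ran from 9.76 to 9.92 (gap over range 0.783). Socs4 1421273_at was highest on replicate 3, at 2.57, where the others ran from 2.17 to 2.19 (0.943). Socs2 1446085_at was lowest on replicate 1, at 2.35, where the others ran from 2.48 to 2.49 (0.944). The last 2 probe sets are near the lowest value of the table, and populations of 3 arrays were not tested in this way.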

How the results depend on the processing

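The alternatives gave 3056 values for 192 results on single probe sets and comparisons. Of these, 2835 kept their side of the threshold, 160 lost significance and 60 gained it, and 1 changed sign where a fit had passed. A change of sign between values that both did not pass was not counted. Of the 50 calls, 15 held in every alternative and 31 in every fit that left out 1 array. The counted change of sign was Socs4 1455142_at in CLP against GMP, -0.478 (adjusted p = 0.00556) as the mean over the 4 Socs4 probe sets, where the brightest alone gave 0.15 (adjusted p = 0.945).

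With only the 2 populations in the fit, the count was 1 in MPPFL+ against MPPFL- (2 as reported), 1 in CMP against MPPFL+ (9), 3 in GMP against CMP (7), 0 in CLP against MPPFL+ (3, with 7 at an unadjusted p under 0.05 by limma) and 1 in DN1 against CLP (8). Fewer arrays entered these fits, in which 14.1%, 2.72%, 5.69%, 1.44% and 11.7% of all probe sets passed in these comparisons in turn. With the spike-in sets as a random block it was 4 in CMP against MPPFL+, 4 in GMP against CMP, 0 in DN1 against CLP (7 at an unadjusted p under 0.05 by limma), 2 in DN2 against DN1 (1) and 4 in DN3 against DN2 (8), where 6.92%, 7.35%, 11.3%, 6.23% and 14.1% of all probe sets passed. In DN2 against DN1 it was also 2 after quantile normalization, with the filter on dim probe sets and with values under 4 set to 4. Without the arrays with Xist it was 5 in DN3 against DN2. The cause of these changes was otherwise not tested.

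With the replicate number as a block the count was 0 in MPPFL+ against MPPFL- (3 at an unadjusted p under 0.05 by limma), 10 in CMP against MPPFL+, 5 in GMP against CMP, 3 in CLP against MPPFL+, 8 in DN1 against CLP, 1 in DN2 against DN1, 8 in DN3 against DN2 and 12 in CLP against GMP. Correlations of deviations between arrays of the same number ran from -0.645 to 0.476. In DN3 against DN2 every array was closest to the one with its own number, and elsewhere this was mixed. With so few arrays this cannot show whether samples of the same number were prepared together.

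Leaving out 1 array gave 1 to 3 calls in MPPFL+ against MPPFL-, 7 to 10 in CMP against MPPFL+, 4 to 9 in GMP against CMP, 0 to 3 in CLP against MPPFL+, 5 to 7 in DN1 against CLP, 1 to 2 in DN2 against DN1, 7 to 9 in DN3 against DN2, 9 to 11 in CLP against GMP and 17 to 18 by the F test. The counts moved most without MPPFL- replicate 2 or 5 or MPPFL+ replicate 1 or 2 (1 call in MPPFL+ against MPPFL-), GMP replicate 2 or 3 (4 in GMP against CMP), MPPFL+ replicate 2 (0 in CLP against MPPFL+, with 5 at an unadjusted p under 0.05 by limma), DN1 replicate 1 (5 in DN1 against CLP) and DN1 replicate 3 or DN2 replicate 1 (2 in DN2 against DN1).

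The fit within 1 spike-in set was chosen after seeing the data. Signal limits the results for Socs1 and 8 other probe sets that never reached 5, for which a difference was not detectable unless stated.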
